A study of Mus musculus with 16 samples.

Results

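The chemokine receptors Ccr4 and Ccr8 and 4 of their ligands were followed in mouse lung across 4 groups. The 6 genes were Ccl17 and Ccl22, which act on Ccr4, Ccl8 and Ccl1, which act on Ccr8, and the receptors Ccr4 and Ccr8 themselves. Each was taken from the 1 probe set whose annotation gave its symbol alone, and all 6 were found among 19938 genes. The groups were Vldlr knockout (KO) mice given house dust mite extract (HDM), KO mice given saline, wild-type (WT) mice of the strain B6129SF2/J given HDM, and WT mice given saline, with 4 arrays each. Vldlr encodes the very low density lipoprotein receptor, and the labels give the knockout as Vldlr-/- without naming its strain. Loss of Vldlr and a difference in strain background therefore cannot be told apart where KO and WT lungs are compared. HDM is an allergen that causes an asthma-like inflammation of the airways when inhaled, and it was given through the nose at 25 µg in 10 µl on 5 days a week for 6 weeks. Saline was given in the same way. Neither the age and sex of the mice nor the number of animals behind an RNA sample is known here, so p-values measure only the spread between these samples.

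CCR4 and CCR8 are G protein-coupled receptors of T cells, found above all on T helper 2 cells and regulatory T cells. Dendritic cells and macrophages make CCL17 and CCL22, and interleukins 4 and 13 induce both genes through the transcription factor STAT6. CCL1, made by activated T cells and mast cells, is the classical ligand of CCR8. In the mouse, CCL8 is a second agonist of CCR8, whereas human CCL8 acts on other receptors. In allergic airways these axes are known for drawing type 2 and regulatory T cells into the tissue.

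The ligand genes lie in 2 clusters and both receptors on 1 chromosome. On GRCm38.p6, Ccl22 (chr8:94745684-94751388) and Ccl17 (chr8:94809380-94812038) flank Cx3cl1, and Ccl8 (chr11:82115185-82116799) lies next to Ccl1 (chr11:82176666-82179812). Ccr4 (chr9:114490316-114505476) and Ccr8 (chr9:120092133-120094906) lie apart, Ccr8 beside Cx3cr1. The 250 bases before the start of 3 genes are shown, because Ccl17 and Ccl22 are neighbours that share a receptor, and Ccr8 was the member whose HDM change differed between the genotypes past the threshold. The changes of Ccl17 and Ccl22 were not tested against each other. The sequences are those of RefSeq on GRCm38.p6, at chr8:94810203-94810452 for Ccl17, chr8:94745434-94745683 for Ccl22 and chr9:120091883-120092132 for Ccr8, all on the plus strand. The start used for Ccl17 lies inside the annotated span of the gene, so its window does too. Capitals mark matches on either strand to TTC and GAA with 4 bases between them, the spacing that STAT6 prefers, to TTCNNNGAA, to AGATAA or to the kappa B motif.
Ccl17: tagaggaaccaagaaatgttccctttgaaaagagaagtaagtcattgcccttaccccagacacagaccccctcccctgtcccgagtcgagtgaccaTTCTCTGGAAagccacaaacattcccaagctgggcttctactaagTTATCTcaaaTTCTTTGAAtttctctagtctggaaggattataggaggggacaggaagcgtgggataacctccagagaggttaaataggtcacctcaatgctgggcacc
Ccl22: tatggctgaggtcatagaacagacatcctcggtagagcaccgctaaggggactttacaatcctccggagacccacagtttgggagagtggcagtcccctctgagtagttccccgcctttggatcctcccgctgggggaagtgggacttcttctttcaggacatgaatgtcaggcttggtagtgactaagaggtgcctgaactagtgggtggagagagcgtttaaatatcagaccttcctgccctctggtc
Ccr8: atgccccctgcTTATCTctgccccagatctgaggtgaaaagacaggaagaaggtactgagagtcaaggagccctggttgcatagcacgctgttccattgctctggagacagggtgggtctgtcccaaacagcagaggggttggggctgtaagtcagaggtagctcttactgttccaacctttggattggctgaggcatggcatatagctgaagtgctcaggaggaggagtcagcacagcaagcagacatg
Among the 6 windows, the STAT6 motif was found in that of Ccl17 alone, as TTCTCTGGAA, starting 154 bases before the start used for Ccl17. It occurred in 5.85% of 32851 such windows. Ccl17 also held TTCNNNGAA, as did 7.02% of windows, and both Ccl17 and Ccr8 held AGATAA, as did 9.99%. The matches marked in these windows do not overlap each other. The kappa B motif, present in 7.25% of windows, was found in the window of Ccl1, which is not shown, and the windows of Ccl22, Ccl8 and Ccr4 held no match to these letters. Like that of Ccl17, the window of Ccr4 (chr9:114496545-114496794) lies inside the annotated span of its gene.

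All levels and changes below are log2 values, so that a change of 1 is a doubling. Levels of different probe sets cannot be set against each other. A gene passed at a limma p under 0.05 after Benjamini-Hochberg adjustment over all genes, and SE is limma's standard error of a change. Array medians lay between 8.78 and 8.85. Vldlr averaged 9.63 ± 0.21 and 9.83 ± 0.07 in KO HDM and KO saline lungs, against 10.56 ± 0.27 and 10.59 ± 0.11 in WT HDM and WT saline lungs (SD, n = 4 each), so every KO array was below every WT array. The mean level of 6 lung epithelium markers, Sftpc and Scgb1a1 among them, was 11.94, 11.94, 12.06 and 12.38 on KO HDM arrays 1 to 4, between 12.35 and 12.44 in KO saline, between 12.30 and 12.49 in WT HDM and between 12.22 and 12.48 in WT saline lungs. KO HDM arrays 1 to 3 were thus below all others, and the part of this in the members' changes was not tested. WT saline 2 and 3 stood above WT saline 1 and 4 in eosinophil markers (8.78 and 8.64, against 8.41 and 8.45) and in mast cell markers (8.37 and 8.10, against 7.69 and 7.89). Changes that rest on them are also given without both for Ccl17, for Ccr8 and for the HDM change of Ccl22 in WT lungs. The other such changes of the members are not given without both. Ccl1 and Ccr8 had a mean level under the 25th percentile of genes and Ccl8 one under the 50th, and no detection call was used here. Dbp, an output gene of the circadian clock chosen after its values were seen, averaged 10.97 ± 0.25 in WT HDM lungs and between 9.60 and 9.80 in the other groups, so it differed in each comparison that involves WT HDM, and its part in those results was not tested. In whole lung, more cells of a type and more RNA per cell cannot be told apart.

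**Figure D1:**
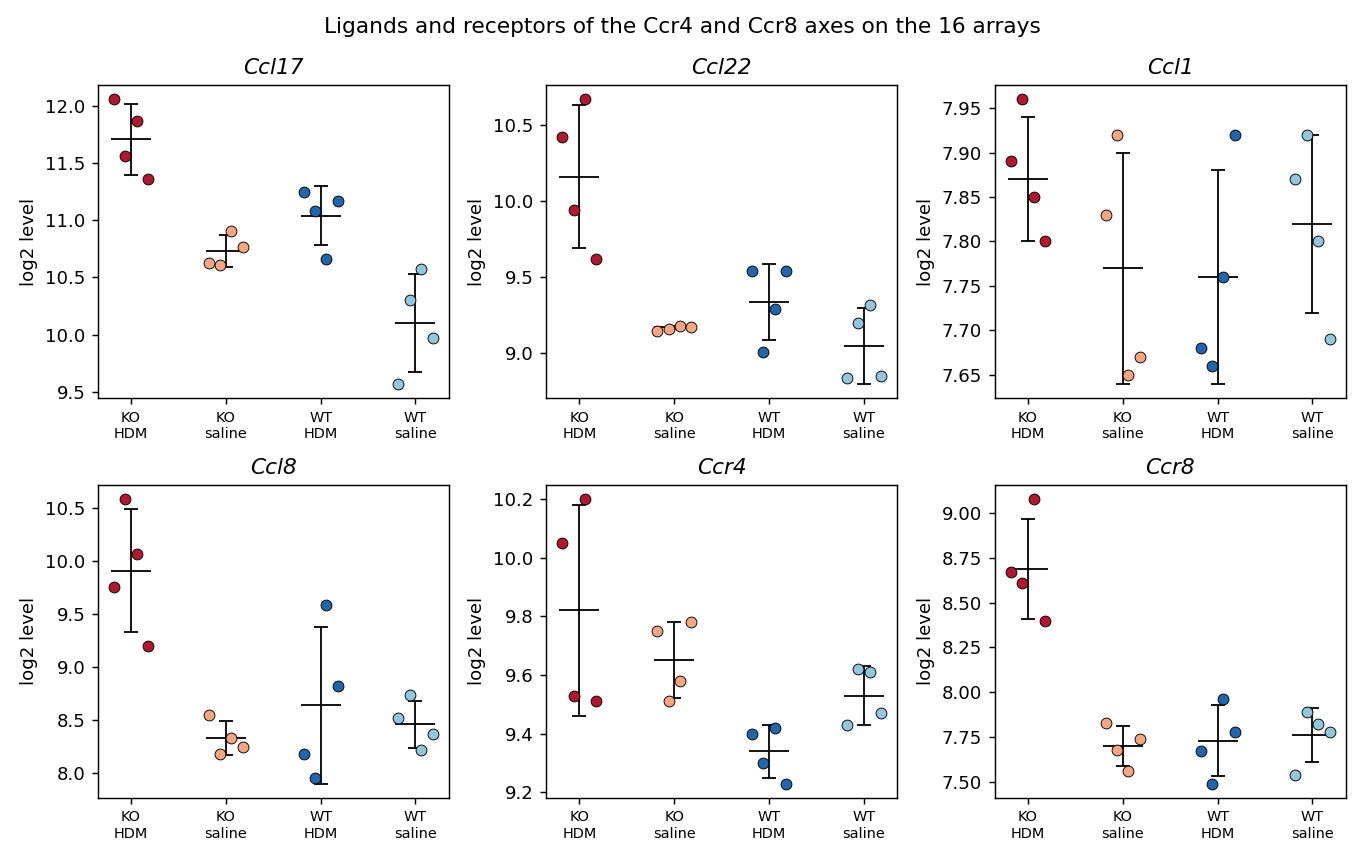
Log2 level (y axis, a scale of its own in each panel) of the 4 ligands and 2 receptors on each of the 16 arrays, by group. Points are arrays, bars the group mean and whiskers the SD of 4 arrays. The 4 KO HDM arrays lie above all 12 others for Ccl17, Ccl22 and Ccr8, and the groups overlap for Ccl1.

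Ccl17, a ligand of Ccr4, was raised by HDM in both genotypes, and the difference between the changes did not pass. Its level was 12.06, 11.56, 11.87 and 11.36 on KO HDM arrays 1 to 4, against 10.63, 10.61, 10.91 and 10.77 on KO saline arrays 1 to 4. In WT lungs it was 11.25, 11.08, 10.66 and 11.17 on the HDM arrays and 9.57, 10.30, 10.57 and 9.97 on the saline arrays. All 4 HDM arrays were above all 4 saline arrays in each genotype. HDM raised Ccl17 by 0.98 in KO lungs (n = 4 per group, SE 0.18, 1.98-fold, limma adjusted p = 0.00282) and by 0.94 in WT lungs (SE 0.18, 1.92-fold, limma adjusted p = 0.0036). The difference between these changes was 0.04 (95% interval -0.50 to 0.59, limma adjusted p = 0.954). Without WT saline 2 and 3, the higher pair of their group, the WT rise was 1.27 and the difference -0.29. Between genotypes, Ccl17 was higher in KO than in WT lungs by 0.67 under HDM (SE 0.18, limma adjusted p = 0.0261), with no overlap of the arrays. Under saline the genotype difference was 0.63 (SE 0.18), again with no overlap, and it did not pass (limma adjusted p = 0.236). Without WT saline 2 and 3 it was 0.96 (limma adjusted p = 0.068). In order of mean level the groups were KO HDM at 11.71 ± 0.31, WT HDM at 11.04 ± 0.26, KO saline at 10.73 ± 0.14 and WT saline at 10.10 ± 0.43, and the middle pair overlapped.

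Ccl22, the other Ccr4 ligand, was high in KO HDM lungs. It stood at 10.42, 9.94, 10.67 and 9.62 on KO HDM arrays 1 to 4, against 9.15, 9.16, 9.18 and 9.17 on the KO saline arrays. The WT HDM arrays had 9.54, 9.01, 9.29 and 9.54, and the WT saline arrays 8.84, 9.20, 9.32 and 8.85. KO HDM arrays were above all others, the KO saline arrays were nearly alike, and the WT groups overlapped. HDM raised Ccl22 in KO lungs by 1.0 (SE 0.18, n = 4 per group, limma adjusted p = 0.00205). In WT lungs the change was 0.29 (95% interval -0.08 to 0.67) and did not pass (limma adjusted p = 0.244). Without WT saline 2 and 3, the higher pair of its group, it was 0.50 (SE 0.21, limma adjusted p = 0.174). The genotypes differed under HDM by 0.82 (SE 0.18, 1.76-fold, limma adjusted p = 0.0087), and by 0.11 under saline (95% interval -0.26 to 0.49, limma adjusted p = 0.958). The difference between the HDM changes of the genotypes was 0.71 (SE 0.25) and did not pass (limma adjusted p = 0.18). Over 26 other settings of processing or of arrays left out it ranged from 0.50 to 0.89, with limma adjusted p up to 0.533. It passed in 1 of them, without KO HDM 4, at 0.89 (SE 0.22, limma adjusted p = 0.0271). In order, KO HDM at 10.16 ± 0.47 was followed by WT HDM at 9.34 ± 0.25, KO saline at 9.17 ± 0.01 and WT saline at 9.05 ± 0.25, and these last 3 overlapped.

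Ccl8, the mouse Ccr8 ligand of macrophages, had the largest change of the 6 genes in KO lungs. KO HDM arrays 1 to 4 had 9.76, 10.59, 10.07 and 9.20, against 8.55, 8.18, 8.33 and 8.25 on the KO saline arrays. WT HDM arrays 1 to 4 had 8.18, 7.95, 9.59 and 8.82, and the WT saline arrays 8.52, 8.74, 8.22 and 8.37. Within KO the treatments did not overlap, whereas the WT HDM arrays spread on both sides of the WT saline arrays, and WT HDM 3 was above KO HDM 4. HDM raised Ccl8 in KO lungs by 1.58 (n = 4 per group, SE 0.29, 2.98-fold, limma adjusted p = 0.00251), and the change in WT lungs was 0.18 (95% interval -0.44 to 0.79, limma adjusted p = 0.689). Without WT HDM 3 the WT change was -0.14. Under HDM, Ccl8 was higher in KO than in WT lungs by 1.27 (SE 0.29, limma adjusted p = 0.0116). The difference between the HDM changes was 1.40 (SE 0.41, limma adjusted p = 0.109). Over 25 other settings of processing or of arrays left out it ranged from 1.17 to 1.72, with limma adjusted p up to 0.297. It passed in 2 of them, without KO HDM 4, at 1.64 (limma adjusted p = 0.0235), and without WT HDM 3, at 1.72 (limma adjusted p = 0.0192). Under saline the genotypes differed by -0.13 (95% interval -0.74 to 0.48, limma adjusted p = 0.973).

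Ccl1, the Ccr8 ligand of activated T cells and mast cells, lay between 7.65 and 7.96 on all 16 arrays. Its means were 7.87 ± 0.07 in KO HDM, 7.77 ± 0.13 in KO saline, 7.76 ± 0.12 in WT HDM and 7.82 ± 0.10 in WT saline lungs (SD, n = 4 each). All groups overlapped with each other, and no comparison passed. The HDM change was 0.10 in KO lungs (95% interval -0.05 to 0.26, limma adjusted p = 0.433) and -0.07 in WT lungs (95% interval -0.22 to 0.09, limma adjusted p = 0.543).

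Ccr4, the receptor of Ccl17 and Ccl22, did not pass for HDM in either genotype but differed between the genotypes under HDM. It was at 10.05, 9.53, 10.20 and 9.51 on KO HDM arrays 1 to 4, against 9.75, 9.51, 9.58 and 9.78 on the KO saline arrays. WT HDM arrays had 9.40, 9.30, 9.42 and 9.23, and WT saline arrays 9.43, 9.62, 9.61 and 9.47. The KO HDM arrays formed a high pair, 1 and 3, and a low pair within the range of KO saline, and in WT all HDM arrays were below all saline arrays by a narrow margin. The HDM change was 0.17 in KO lungs (95% interval -0.09 to 0.43, limma adjusted p = 0.454) and -0.20 in WT lungs (95% interval -0.46 to 0.07, limma adjusted p = 0.264). KO HDM lungs exceeded WT HDM lungs by 0.49 (n = 4 per group, SE 0.12, 1.40-fold, limma adjusted p = 0.0193). The difference between the HDM changes was 0.36 (SE 0.18, limma adjusted p = 0.33).

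Ccr8, the receptor of Ccl1 and Ccl8, was high in KO HDM lungs, and it was the gene of the 6 whose HDM change differed between genotypes past the threshold. Its level was 8.67, 8.61, 9.08 and 8.40 on KO HDM arrays 1 to 4, against 7.83, 7.68, 7.56 and 7.74 on the KO saline arrays. WT HDM arrays 1 to 4 had 7.67, 7.49, 7.96 and 7.78, and the WT saline arrays 7.54, 7.89, 7.82 and 7.78. The lowest KO HDM array was above all 12 other arrays, among which the groups overlapped. HDM raised Ccr8 in KO lungs by 0.98 (n = 4 per group, SE 0.12, 1.98-fold, limma adjusted p = 9.89e-05). In WT lungs the change was -0.03 (95% interval -0.29 to 0.23, limma adjusted p = 0.87). The difference between these changes was 1.02 (SE 0.17, limma adjusted p = 0.0147), rank 25 by p among the 19938 genes, and without both WT saline 2 and 3 it was 0.92 (SE 0.20, limma adjusted p = 0.114). Between genotypes Ccr8 was higher in KO lungs by 0.96 under HDM (SE 0.12, limma adjusted p = 0.000371), and the difference was -0.05 under saline (95% interval -0.31 to 0.20, limma adjusted p = 0.974).

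**Figure D2:**
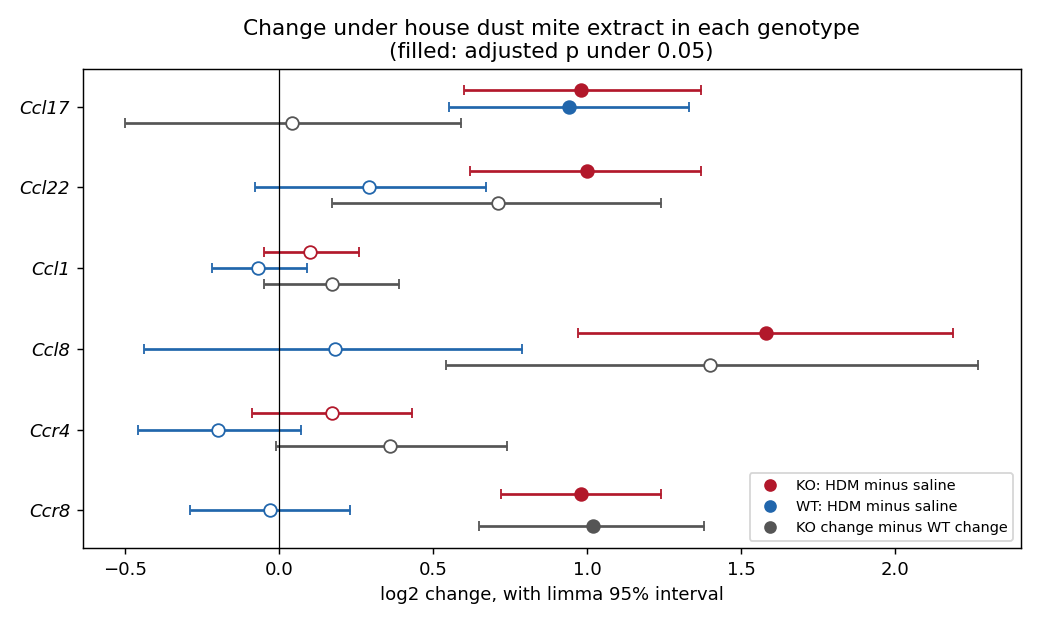
Log2 change under HDM (x axis) of each ligand and receptor in KO lungs, in WT lungs, and the KO change minus the WT change, with limma's 95% intervals. Filled points passed at an adjusted p under 0.05. The KO and WT changes are close for Ccl17, at 0.98 and 0.94, and are farthest apart for Ccl8, at 1.58 and 0.18.

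Within the KO HDM group, array 4 was the lowest of the 4 arrays for all 6 genes, and array 3 the highest for 3 of them, Ccl22, Ccr4 and Ccr8. Array 4 also had the lowest mean level of its group for the eosinophil markers, at 9.41 against 9.79 to 10.12 on the other KO HDM arrays, and for the regulatory and activated T cell genes, at 9.35 against 9.56 to 9.78. In the WT HDM group array 2 was the lowest for 4 of the 6 genes.

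In KO lungs HDM raised 4 of the 6 genes, Ccl17, Ccl22, Ccl8 and Ccr8, and lowered none. Of all genes 8.84% passed in this comparison, 4.96% higher and 3.88% lower. The median change of the 6 was 0.98, and that of all genes -0.03. Groups did not overlap for the same 4 members, against 14.0% of all genes, 6.71% higher and 7.33% lower. With each array scaled by quantiles, 46.8% of all calls in this comparison were higher (905 higher, 1028 lower), against 56.1% (989 higher, 774 lower) as deposited.

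Other genes of these pathways moved on the same arrays. Of 14 other CC chemokines 5 rose and 3 fell. They included the eotaxins Ccl24 (2.94, SE 0.41, limma adjusted p = 0.000261) and Ccl11 (2.18, SE 0.19), which attract eosinophils, and the inflammatory chemokine Ccl3 (1.89, SE 0.38). Of 13 other chemokine receptors 5 rose and 2 fell, with the eotaxin receptor Ccr3 up by 2.60 (SE 0.18) and the inflammatory receptors Ccr1 by 0.98 (SE 0.19) and Ccr2 by 0.58 (SE 0.13). Of 8 genes of T helper 2 cells and type 2 innate lymphoid cells 5 rose and none fell, with Il17rb, a receptor chain for interleukin 25, up by 0.78 (SE 0.09, limma adjusted p = 2.88e-05), Il5 by 0.49 (SE 0.12) and Il4 by 0.45 (SE 0.09). Of 12 regulatory and activated T cell genes 4 rose and none fell, among them the interleukin 2 receptor chain Il2ra by 0.80 (SE 0.16), Il10 by 0.53 (SE 0.15) and the inhibitory receptor Ctla4 by 0.45 (SE 0.13). Of 12 pan T cell genes none rose and 2 fell, the adaptor gene Trat1 by 0.62 and Thy1 by 0.24.

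Cells that make the ligands were followed by 2 further lists. Of 11 dendritic cell genes 4 rose, with the integrin Itgax up by 1.61 (SE 0.22, limma adjusted p = 0.00021), the lectin Mgl2 by 0.83 (SE 0.14) and Pdcd1lg2, a ligand of the inhibitory receptor PD-1, by 0.76 (SE 0.16). Of 12 interstitial and alternatively activated macrophage genes 7 rose, with Arg1, which degrades arginine, up by 3.02 (SE 0.38), the tetraspanning membrane protein gene Ms4a7 by 1.35 (SE 0.29) and the chitinase-like Chil3 by 1.35 (SE 0.18). Of 15 genes of the inducing cytokines and their signalling 4 rose, among them the shared receptor chain Csf2rb by 0.71 (SE 0.16), the alarm cytokine Il33 by 0.63 (SE 0.12) and the receptor chain Csf2ra by 0.63 (SE 0.12). Stat6 itself was at 0.09 (limma adjusted p = 0.403). The atypical receptors that bind Ccl17 and Ccl22 without signalling for migration, Ackr1 and Ackr2, were at 0.18 and 0.11 and did not pass.

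Markers of other cell types moved with these genes, and their part in the changes was not tested. Of 7 eosinophil markers 5 rose, and their mean level was between 9.41 and 10.12 in KO HDM lungs and between 8.40 and 8.51 in KO saline lungs. Of 8 mast cell and basophil markers 5 rose (mean level between 8.80 and 9.50 in KO HDM, and between 7.58 and 7.76 in KO saline lungs). Of 7 lymph node markers 3 fell (9.22 to 9.60 in KO HDM, 9.80 to 10.07 in KO saline lungs), with Glycam1, an adhesion ligand of high endothelial venules, lower by 1.88. None of 6 thymus markers and none of 5 B cell markers passed, and the mean level of the thymus markers was between 7.72 and 7.78 in KO HDM lungs and between 7.78 and 7.89 in KO saline lungs. The mean level of the pan T cell genes was between 9.38 and 9.50 in KO HDM lungs and between 9.41 and 9.63 in KO saline lungs. Of 8 NK cell markers 1 fell (Klrd1), of 7 alveolar macrophage markers 1 rose (Fabp5) and 2 fell (Krt79 and Cidec), of 6 lung epithelium markers 2 fell and of 6 muscle markers none passed.

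In WT lungs HDM raised 1 of the 6 genes, Ccl17, and lowered none. In this comparison 17.6% of all genes passed, 7.86% higher and 9.72% lower. The median change of the 6 was 0.07, against -0.05 for all genes, and the groups did not overlap for 2 of them, Ccl17 and Ccr4, against 23.5% of all genes, 9.13% higher and 14.4% lower. With arrays shifted to the same median 56.3% of all calls were higher (1668 higher, 1296 lower), against 44.7% (1568 higher, 1937 lower) as deposited. Among the other CC chemokines 4 of 14 rose and 3 fell, with Ccl3 at 1.42, Ccl11 at 1.01 and the lymphoid chemokine Ccl19 at -1.09. Among the other receptors 4 of 13 rose and 1 fell, with Ccr3 up by 1.78 (SE 0.18, limma adjusted p = 4.45e-05). In the T helper 2 list 1 of 8 rose, the transcription factor gene Maf by 0.31 (SE 0.06). In the regulatory T cell list 2 of 12 rose, the transcription factor genes Ikzf2 by 0.30 and Foxp3 by 0.20, and of the pan T cell genes 2 of 12 rose, Cd4 and Cd27, and 3 fell. In the dendritic cell list 3 of 11 rose, with Itgax at 1.16 and Mgl2 at 0.57. In the macrophage list 4 of 12 rose, with Chil3 at 1.26, and 1 fell. Of the inducing cytokine genes 4 of 15 rose, with Csf2ra at 1.04. Stat6 was among them, at 11.48 ± 0.04 in WT HDM and 11.30 ± 0.10 in WT saline lungs (SD). Eosinophil markers rose in 3 of 7 cases (mean level between 9.0 and 9.43 in WT HDM, and between 8.41 and 8.78 in WT saline lungs), mast cell markers in 1 of 8, and 4 of 7 lymph node markers fell (8.64 to 9.31 in WT HDM, 9.82 to 10.18 in WT saline lungs). Of 8 NK cell markers 3 fell and of 7 alveolar macrophage markers 3 rose, none of the thymus or B cell markers passed, 1 of 6 lung epithelium markers rose and 1 fell, and 1 of 6 muscle markers fell.

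Under HDM, 5 of the 6 genes were higher in KO than in WT lungs and none was lower. They were Ccl17, Ccl22, Ccl8, Ccr4 and Ccr8, with a median difference of the 6 of 0.75, against 0.02 for all genes. Of all genes 11.7% passed in this comparison, 5.84% higher and 5.83% lower. The arrays did not overlap for 4 members, against 10.8% of all genes, 5.74% higher and 5.06% lower. By p, Ccr8 ranked at 24 of 19938. When only these 2 groups were fitted, Ccr8 passed and the other 4 did not, with limma adjusted p between 0.0592 and 0.0956 at the same size of difference. The call of Ccl17 ended without KO HDM 1 (0.56), KO HDM 3 (0.62), WT HDM 2 (0.69) or WT HDM 3 (0.55), and that of Ccr4 without KO HDM 1 (0.41), KO HDM 3 (0.36), WT HDM 2 (0.47) or WT HDM 4 (0.45).

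**Figure D3:**
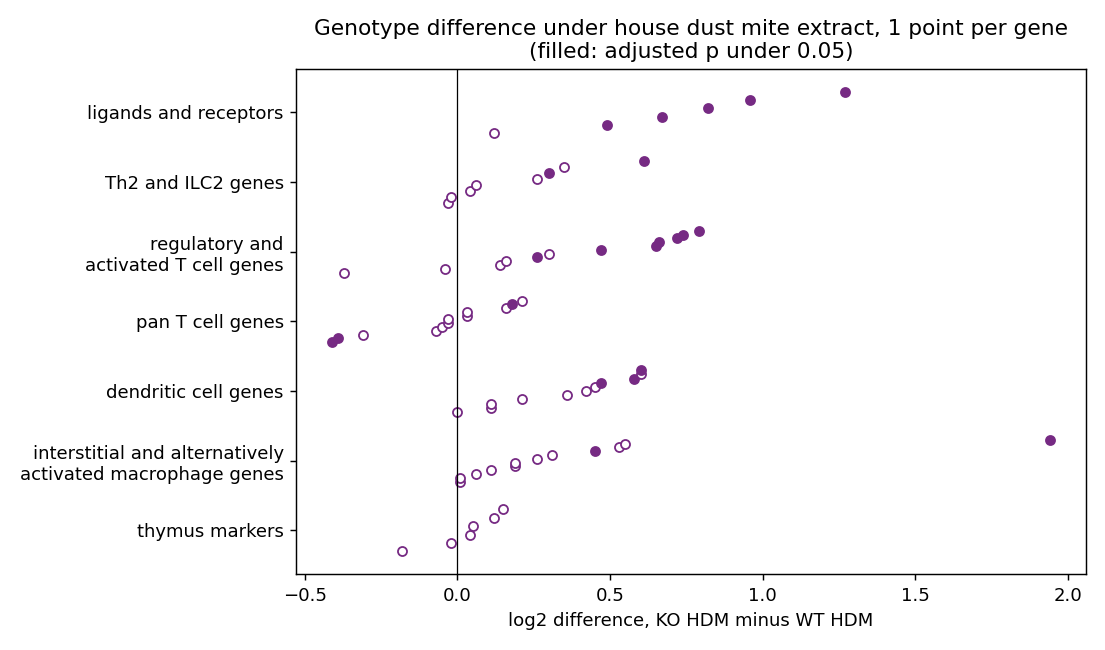
Log2 difference between KO HDM and WT HDM lungs (x axis), 1 point per gene, for the ligands and receptors and for lists of genes of T cells, dendritic cells, macrophages and thymus. Filled points passed at an adjusted p under 0.05, which 7 of 12 regulatory and activated T cell genes did, all higher, and 3 of 12 pan T cell genes, 1 higher and 2 lower.

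Of 12 genes of activated and regulatory T cells 7 were higher in KO HDM than in WT HDM lungs and none was lower. Their mean level was between 9.35 and 9.78 in KO HDM and between 9.10 and 9.25 in WT HDM lungs. It was also apart under saline, between 9.20 and 9.30 in KO saline and between 9.06 and 9.15 in WT saline lungs, although no gene of the list passed there or in the interaction. Icos, a costimulatory receptor of activated T cells, was at 10.74, 10.34, 10.55 and 10.12 on KO HDM arrays 1 to 4, against 9.94, 9.41, 9.76 and 9.48 on WT HDM arrays 1 to 4 (0.79, SE 0.13, n = 4 per group, limma adjusted p = 0.0018). Ctla4 was at 9.57, 10.02, 9.87 and 9.13 in KO HDM lungs, against 8.99, 8.88, 8.79 and 8.97 in WT HDM lungs (0.74, SE 0.13, limma adjusted p = 0.00356). In both genes the KO HDM arrays lay above the WT HDM arrays, with KO HDM 4 the lowest. Il10 was higher by 0.72 (SE 0.15). Foxp3, which defines regulatory T cells, was at 9.22 in KO HDM and 9.08 in WT HDM lungs and did not pass (limma adjusted p = 0.164). Pan T cell genes passed in both directions, with Lat, a signalling adaptor, higher by 0.18, and Cd27 and Trat1 lower by 0.41 and 0.39. Cd3e, a chain of the T cell receptor complex, averaged 10.72 ± 0.18 in KO HDM and 10.52 ± 0.12 in WT HDM lungs (SD, n = 4 each). Of the 8 T helper 2 genes 2 were higher, Il17rb by 0.61 (SE 0.09, limma adjusted p = 0.000654) and Il13 by 0.30 (SE 0.09), and none was lower.

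Of 11 dendritic cell genes 3 were higher in KO HDM than in WT HDM lungs, the costimulatory ligand gene Cd86 by 0.60 (SE 0.16), Fscn1, an actin-bundling protein of mature dendritic cells, by 0.58 (SE 0.11) and Mgl2 by 0.47 (SE 0.14). Of 12 macrophage genes 2 were higher, Arg1 by 1.94 and C1qa, a complement component, by 0.45. Of the 15 inducing cytokine genes 3 were higher and none lower, with Il4ra, the receptor chain for interleukins 4 and 13, higher by 0.40 (SE 0.08, limma adjusted p = 0.00745), Crlf2, the receptor of TSLP, by 0.24 and Stat5a by 0.23. Of 14 other CC chemokines 3 were higher, Ccl24 by 2.85, Ccl9 by 0.99 and Ccl11 by 0.82, and of 13 other receptors 2 were higher, Cxcr6 by 0.55 and Xcr1 by 0.47. Among other cell types, 3 of 7 eosinophil markers were higher (mean level between 9.41 and 10.12 in KO HDM, and between 9.0 and 9.43 in WT HDM lungs), 4 of 8 mast cell markers were higher and 1 lower (8.80 to 9.50 in KO HDM, 7.76 to 8.85 in WT HDM lungs), 1 of 7 lymph node markers was higher, 3 of 7 alveolar macrophage markers were lower, and 2 of 6 epithelium and 2 of 6 muscle markers were lower. None of the thymus, B cell or NK cell markers passed, with median differences of 0.05, 0.40 and 0.03, against 0.02 for all genes. The mean level of the lymph node markers was between 9.22 and 9.60 in KO HDM and between 8.64 and 9.31 in WT HDM lungs. The part of these cell type markers in the result was not tested.

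Under saline none of the 6 genes passed between KO and WT lungs. Of all genes 0.231% passed in this comparison by limma, 0.0903% higher and 0.140% lower. Without adjustment, limma's p was under 0.05 for Ccl17 alone of the 6 and for 1558 genes in all. Ccl17 was also the only member without overlap, against 6.54% of all genes, 3.16% higher and 3.38% lower. The median difference of the 6 was 0.03. For the 12 regulatory and activated T cell genes it was 0.17, against -0.01 for all genes, and Ctla4 was at 0.39 with no overlap of the arrays (limma adjusted p = 0.385). No gene of the 17 lists passed, and those of smallest p were the epithelial chemokine Ccl28 (0.42, limma adjusted p = 0.0951) and the muscle creatine kinase Ckm (-0.23, limma adjusted p = 0.142).

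The comparison of the HDM change in KO with that in WT lungs asked whether the response to the allergen differed between these mice. It cannot separate loss of Vldlr from strain background. Of the 6 genes 1 passed, Ccr8, with a larger change in KO lungs, and 0.802% of all genes passed, 0.356% higher and 0.446% lower. The median difference of the 6 was 0.54, against 0.03 for all genes. In the lists, the eotaxins Ccl24 and Ccl11 (2 of 14 other CC chemokines), Il17rb (1 of 8 T helper 2 genes, 0.68, SE 0.12, limma adjusted p = 0.0175) and Arg1 (1 of 12 macrophage genes) also had a higher change in KO than in WT lungs. Ccl24 averaged 8.58 ± 0.68 in WT saline and 7.91 ± 0.20 in WT HDM lungs (SD, n = 4 each). Il17rb was at 9.12, 8.73, 9.19 and 8.85 on KO HDM arrays 1 to 4, against 8.09, 8.22, 8.29 and 8.16 on the KO saline arrays. It was at 8.41, 8.38, 8.40 and 8.23 on the WT HDM arrays, against 8.18, 8.35, 8.27 and 8.25 on the WT saline arrays. As for Ccr8, the KO HDM arrays were above all others. Of the other cell type markers, Ear6 of eosinophils rose more in KO lungs. Krt79 of alveolar macrophages fell more in KO lungs, with a change of -0.96 (SE 0.11, limma adjusted p = 5.04e-05), against -0.13 in WT lungs (limma adjusted p = 0.401). No gene of the regulatory T cell, dendritic cell, other receptor or inducing cytokine lists passed, and of the pan T cell genes Trat1 did, at -0.66.

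For the 6 genes the exact two-sided permutation test of group means stands beside limma. With 4 arrays against 4 its smallest p is 0.0286, and 24 such tests were run, 4 for each gene. This smallest value, reached wherever the arrays did not overlap, was 0.0624 after Benjamini-Hochberg adjustment over the 24 tests, so no gene passed by this test. The adjusted value depends on how many of the 24 tests reached the smallest p.

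The genes whose levels were most like each member over the 16 arrays were named by Pearson r among 18332 genes. These values describe likeness of 16 arrays that share 4 groups, and they carry no test. Ccl17 was most like Adam23 (r = 0.95, Spearman rho = 0.97) and the lectin gene Mgl2 (r = 0.94, rho = 0.94), followed by the coagulation factor F7, the tight junction gene Cldn1 and Rab43 (r = 0.93 each). Like Ccl17, all 5 rose under HDM in both genotypes, for example Cldn1 by 0.75 in KO and by 0.71 in WT lungs. Their choice by likeness favours such a shared rise. Ccl22 was most like the lectin gene Clec4b2 (r = 0.97, rho = 0.94), the UDP receptor gene P2ry6 (r = 0.97, rho = 0.92) and the ubiquitin ligase gene Cbl (r = 0.97, rho = 0.89). Ccl8 was most like Hk3, the hexokinase of myeloid cells (r = 0.98, rho = 0.84), and Ccr4 like the interleukin 27 receptor gene Il27ra (r = 0.93, rho = 0.89) and Sting1 (r = 0.92, rho = 0.87), a sensor adaptor of innate immunity.

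Ccr8 was most like Ifi30, a lysosomal thiol reductase (r = 0.97, rho = 0.88), the myeloid receptor gene Tarm1 (r = 0.97, rho = 0.81) and Ocstamp, a membrane protein of osteoclast fusion (r = 0.96, rho = 0.88). Tarm1 rose by 1.51 under HDM in KO lungs (SE 0.19, limma adjusted p = 0.000129) and was at -0.06 in WT lungs (limma adjusted p = 0.856). Ocstamp rose by 1.34 in KO lungs (SE 0.17) and was at -0.17 in WT lungs (limma adjusted p = 0.482). Because both genes were chosen for their likeness to Ccr8, these changes are no separate support. Ccl1 was most like Utf1 (r = 0.89), a gene of embryonic stem cells, and Hipk4 (r = 0.85).

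**Figure D4:**
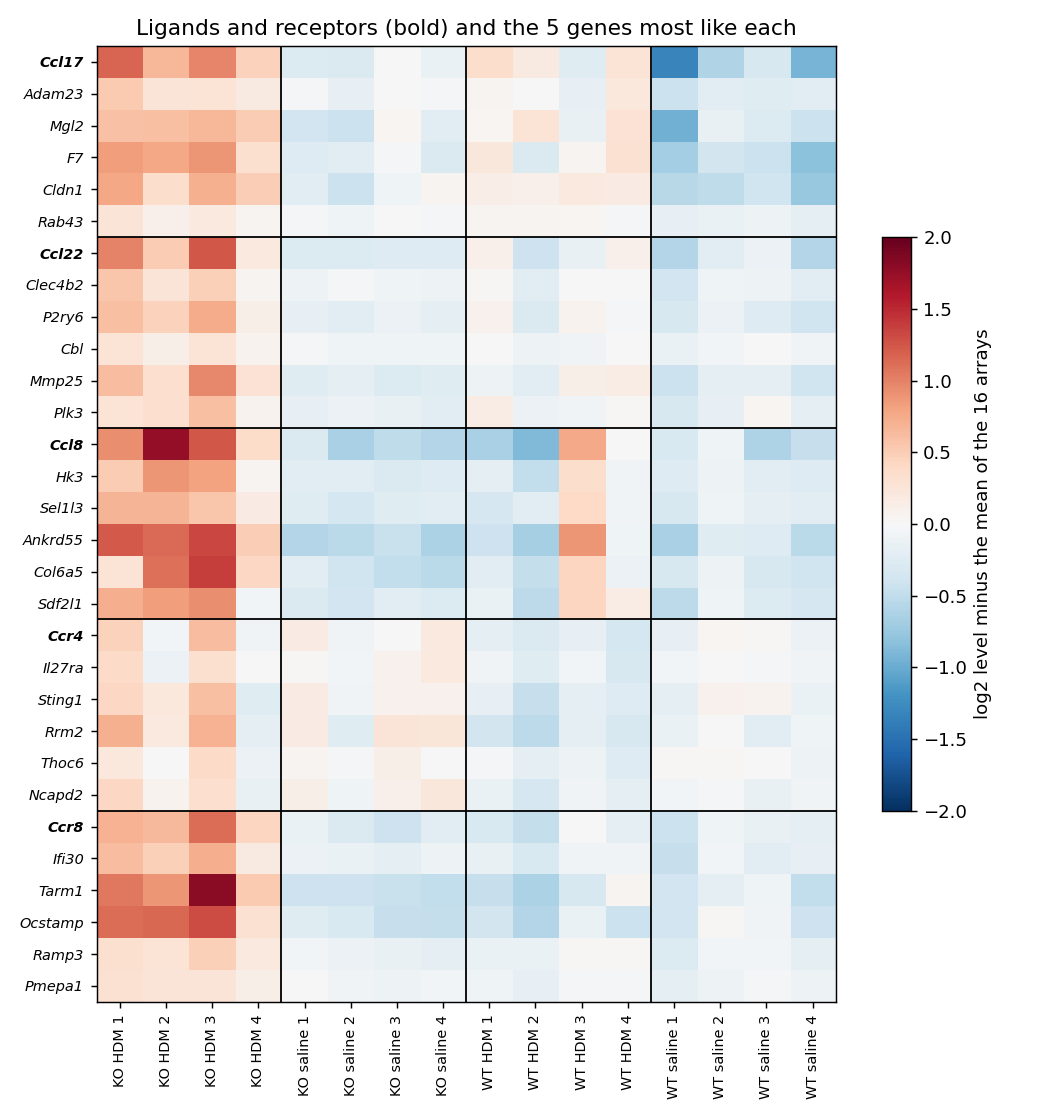
Log2 level minus the mean of the 16 arrays (colour) for 5 ligands and receptors (bold) and the 5 genes most like each by Pearson r, with arrays in columns by group. The rows of Ccr8 and Ccl22 are raised on the KO HDM arrays, KO HDM 4 the least, and those of Ccl17 on the WT HDM arrays as well, while WT HDM 3 stands out in the rows of Ccl8.

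Chemokine genes and receptors next to the members on the chromosome were looked up after the values were seen. Cx3cl1, between Ccl22 and Ccl17, was at -0.09 for HDM in KO lungs (limma adjusted p = 0.627) and at -0.07 in WT lungs (limma adjusted p = 0.589). Cx3cr1, beside Ccr8 and a receptor of monocytes and NK cells, fell by 0.28 under HDM in KO lungs (SE 0.07, limma adjusted p = 0.0171), where Ccr8 rose. Ccl12, next to Ccl8, was at 0.30 in KO lungs (limma adjusted p = 0.116), and Ccl11, the gene beyond it, rose by 2.18.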

How the data were processed

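The deposited table holds log2 values, 1 per probe set and array. Per the submitters' processing notes the tools were RMA and Affymetrix Expression Console. RNA of whole lung was labelled from 50 ng, per the labels' protocols. RMA corrects background, normalizes across arrays and summarises probe sets. Their versions are not given in the sources used. Of 35556 probe sets, 21789 had 1 symbol in the platform annotation, 1621 several and 12146 none. The probe set with the highest mean was kept per gene, which left 19938 genes. Each member had 1 probe set.

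Values were fitted with limma 3.58.1 in R 4.3.3 (4 group means, 12 residual degrees of freedom, eBayes) for 5 comparisons, tests two-sided, adjusted over all genes within a comparison. On simulated data for HDM in KO, with independent normal noise and 200 of 19938 genes changed by 0.5, 1 or 2, 86.5%, 98.5% and 100% of them passed. Recovery in the other comparisons was not assessed. The members and 17 lists (163 genes, 155 measured) were chosen with earlier results of these data known, so no count of members is independent support. From each list up to 3 genes per comparison were named, the largest changes that passed, filled to 2 by p. A few further genes were named for their role or position. Arrays were not paired by replicate number in this fit. Promoters are from RefSeq. With 4 arrays per group, that number limits the precision.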

Additional observations from a re-analysis of the deposited data

Results flagged for a closer look

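The HDM change of Ccr8 was larger in KO than in WT lungs by 1.02, by the interaction term of limma (adjusted p = 0.0147), which could not be tested after either filter on dim genes because both remove Ccr8. The same term passed for other genes named above, with the KO change minus the WT change at 1.17 for Ccl11, 3.61 for Ccl24, 0.68 for Il17rb, 2.71 for Arg1, 1.48 for Ear6, 1.57 for Tarm1 and 1.51 for Ocstamp. Tarm1 and Ocstamp were chosen for levels like those of Ccr8 on these arrays, so their passing is no separate support. The term was below 0 for Trat1 (-0.66), Krt79 (-0.83) and the clock gene Dbp (-1.27). Arg1 stood at 7.97, 9.41, 8.96 and 8.05 on WT saline arrays 1 to 4, and Ccl24 at 8.58 ± 0.68 (SD) in that group. For these other genes the term without both WT saline 2 and 3 is not given, and 12 of all genes passed there. In none of the 24 sets of 4 arrays, 6 genes in 4 groups, did the highest or lowest array stand apart by Dixon's test.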

How the results depend on the processing

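The single-gene directions and calls were recomputed with other normalizations, probe set rules, variance models and filters, and without single arrays. Calls for HDM in KO and HDM in WT kept their side of the threshold wherever the gene was tested. With a filter at the 25th percentile no member passed in the interaction (0, against 1), since Ccr8 is removed. At the 50th percentile, which also removes Ccl8, the members passing were 2 for HDM in KO, 3 for KO under HDM and 0 for the interaction, and all genes passing were 2289 for HDM in WT (3505 otherwise) and 19 for KO under saline (46 otherwise). With array weights, all genes passing were 2938 for HDM in KO (1763 otherwise), 110 for KO under saline and 680 for the interaction (160 otherwise). When only the groups compared were fitted, 1 member and 390 genes passed for KO under HDM (5 and 2327 otherwise) and 98 genes for KO under saline, while the interaction needs all 4 groups. With all probe sets tested, 65 passed in the interaction. Without both WT saline 2 and 3, 1057 genes passed for HDM in WT, 10 for KO under saline and 12 for the interaction, where no member did (0).

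Same-numbered arrays of different groups were compared by the correlation of their deviations from group means over all genes. Of 16 pairs 3 had a correlation over 0.1, and 5 were best with their own number, with correlations between -0.28 and 0.33. Array medians from replicate 1 to 4 fell in WT saline (8.85, 8.85, 8.83 and 8.80) and KO saline lungs (8.84, 8.84, 8.82 and 8.78). They also fell in KO HDM lungs (8.84, 8.84, 8.82 and 8.80) and were 8.83, 8.80, 8.82 and 8.80 in WT HDM lungs. What lies behind this order was not tested. The replicate block moved the interaction to 258 genes and changed no call of a member.

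Leaving out 1 array at a time, all genes passing ranged from 1034 to 2673 for HDM in KO, 1960 to 3611 for HDM in WT, 968 to 3831 for KO under HDM, 14 to 55 for KO under saline and 41 to 1019 for the interaction. The highest counts for HDM in KO, KO under HDM and the interaction were those without KO HDM 4. Members passing ranged from 3 to 5 for KO under HDM and from 1 to 3 for the interaction. Values that did not pass changed sign as follows. Ccr8 for HDM in WT ranged from -0.11 to 0.05 without 1 array, and was 0.02 after quantile normalization, 0.01 with array weights and without WT saline 2, and 0.07 without both WT saline 2 and 3. Ccr8 for KO under saline was 0.04 without both. The Ccl17 interaction ranged from -0.11 to 0.22 without 1 array (-0.02 without WT saline 2, -0.07 and -0.01 without KO HDM 1 and 3, -0.08 without WT HDM 3) and was -0.29 without both WT saline 2 and 3. Ccl8 for HDM in WT ranged from -0.14 to 0.40. Beyond the smaller number of genes or arrays where these were removed, the cause was not tested.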

Other observations

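Likeness was also computed on deviations from group means, which leaves out the differences between groups (16 arrays, 18332 genes, no test). Ccl8 was then most like Acod1, the enzyme that makes itaconate (r = 0.95, Spearman rho = 0.91), the macrophage gene Ms4a7 (r = 0.94, rho = 0.88), Hk3 (r = 0.93, rho = 0.86) and Nos2, the inducible nitric oxide synthase (r = 0.91, rho = 0.76). Acod1 did not pass for HDM in KO (0.16, limma adjusted p = 0.677) or in WT lungs (-0.15, limma adjusted p = 0.615), where Ccl8 was at 1.58 and 0.18. Ccl22 was most like Tbxas1, thromboxane synthase (r = 0.95, rho = 0.92), and Ccr8 like Aqp9, a glycerol channel (r = 0.90, rho = 0.87). Genes most like Ccl17 by deviations, led by the G protein gene Gna13 (r = 0.81, rho = 0.79), included none of the 5 most like it by level.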
